A study of Mus musculus with 6 samples.

Results

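The mesenchymal forkhead factors are described here through 8 genes, Foxf1, Foxf2, Foxl1, Foxc1, Foxc2, Foxd1, Foxp1 and Foxp2, of 18193 genes with a probe set of their own on the array. All 23 probe sets annotated to these genes alone were taken, of 45101 probe sets in the deposited table. Total RNA came from sorted cells of the mouse genital tubercle, the embryonic outgrowth that becomes the penis or the clitoris, at 12.5 dpc (Theiler stage 20), and was hybridized to Affymetrix arrays. The reporter-positive group (3 arrays) held YFP positive cells, labelled urethral epithelium, and the reporter-negative group (3 arrays) held the YFP negative cells of the tubercle. Both groups came from embryos of mixed background and both sexes that carried Shhtm1(EGFP/cre)Cjt and Gt(ROSA)26Sortm3(CAG-EYFP)Hze, so the negative cells have these alleles too. Each array stands for 1 pool of littermates. Replicate 1 of both groups pooled 3 embryos, replicate 2 pooled 5 and replicate 3 pooled 2. Cre is made from the Shh locus and switches the reporter on for good, so a positive cell is one with past or present Shh expression.

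Forkhead (Fox) proteins are transcription factors that bind DNA through a winged-helix domain. Foxf1 and Foxf2 are known as factors of gut and lung mesenchyme that lie downstream of hedgehog signals from the neighbouring epithelium, and Foxl1 is known from the mesenchyme under the gut epithelium. Foxc1 and Foxc2 act in mesoderm, blood vessels and eye development, Foxd1 marks the stroma of the developing kidney, and Foxp1 and Foxp2 are repressors found in many tissues, lung epithelium and brain among them. In the tubercle the urethral epithelium makes the hedgehog ligand Shh and the mesenchyme around it receives it. The comparison asks which of these factors differ between the Shh-lineage epithelium and the other cells.

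The arrays differed strongly in signal. Taken over probe sets with 1 gene, the median signal as deposited was between 0.34 and 4.73 in positive arrays and between 2.15 and 8.84 in negative arrays. Positive replicate 3 was the dimmest, with 24.6% of these probe sets above background, against 44.0% to 59.3% in the other 5 arrays. A signal counts as above background where it exceeds all 27 unspiked bacterial controls of its array. Of the epithelium markers 23 of 24 tested had a positive difference, which goes with the label of the positive cells. Mesenchyme markers were not absent from positive arrays, and 25, 15 and 11 of 26 were above background in positive replicates 1, 2 and 3. Results are therefore also given without positive replicate 3.

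Foxf1 and Foxf2 were the members that set the groups apart in every array, but neither passed the test over all genes. Foxf2 is shown with its chromosomal neighbour Foxc1 because they lie side by side and their differences, given below, were -1.73 and 0.05, with no test between them. Foxc1 was too dim in negative arrays to fall as far as Foxf2 on the scale used below. The 250 bases before each start are given from RefSeq (GRCm38.p6, plus strand), at chr13:31625566-31625815 for Foxf2 and chr13:31806396-31806645 for Foxc1. Capitals mark the motifs named below.
Foxf2: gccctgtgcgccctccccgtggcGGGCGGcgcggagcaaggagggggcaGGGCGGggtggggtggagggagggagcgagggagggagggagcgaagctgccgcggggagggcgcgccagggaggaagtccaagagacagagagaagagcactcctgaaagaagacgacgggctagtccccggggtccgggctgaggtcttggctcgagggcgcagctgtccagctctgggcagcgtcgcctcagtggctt
Foxc1: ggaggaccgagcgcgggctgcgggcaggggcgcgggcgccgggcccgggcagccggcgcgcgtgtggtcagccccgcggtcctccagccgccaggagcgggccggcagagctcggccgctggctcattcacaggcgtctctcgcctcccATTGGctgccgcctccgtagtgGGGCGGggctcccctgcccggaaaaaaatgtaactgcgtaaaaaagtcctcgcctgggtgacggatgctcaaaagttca
Both windows are rich in G and C, at 71.6% for Foxf2 and 70.8% for Foxc1. The Foxf2 window holds 2 GC boxes (GGGCGG), 227 to 222 and 201 to 196 bases before the start. The Foxc1 window holds 1 GC box, 79 to 74 bases before the start, and 1 CCAAT box on the other strand (ATTGG), at 101 to 97. Neither holds the GLI motif GACCACCCA, the forkhead motif TGTTTAC or TATAAA on either strand. Among 32851 RefSeq windows of this length 32.7% hold the GC box, 33.8% the CCAAT box, 0.225% the GLI motif, 3.17% the forkhead motif and 12.4% TATAAA. Such matches describe letters only. The promoter table had entries for 4 of the 8 members.

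The brighter Foxf1 probe set, 1434939_at, was below background in positive replicates 2 and 3. It was above background in positive replicate 1 and in all 3 negative arrays. As deposited it read 21.7, 2.79 and 0.30 in positive replicates 1, 2 and 3, against 67.5, 157 and 18.5 in negative replicates 1, 2 and 3. Among positive arrays the signal was highest in replicate 1. Divided by the median of each array, the signal was 4.59, 0.784 and 0.882 in positive replicates 1, 2 and 3, against 8.85, 17.8 and 8.61 in negative replicates 1, 2 and 3. The groups did not overlap on this scale, whereas as deposited positive replicate 1 lay above negative replicate 3. After quantile normalization, as log2(signal + 16), Foxf1 measured 4.61 ± 0.55 in positive arrays and 6.09 ± 0.29 in negative arrays (SD, n = 3 each). On this scale Foxf1 differed by -1.49 (SE 0.39), with an adjusted p of 0.676 in limma (Benjamini-Hochberg over 14071 genes). It was not past the threshold of 0.05, and the adjusted p ran from 0.00142 to 0.964 over 19 alternatives. In bulk samples of this kind, fewer cells of a type and less RNA per cell cannot be told apart.

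Foxf2 showed the same arrangement of arrays. Its brighter probe set, 1418220_at, read 32.4, 4.21 and 0.18 in positive replicates 1, 2 and 3, against 102, 173 and 33.8 in negative replicates 1, 2 and 3, as deposited. Again positive replicate 1 was the only positive array above background. Relative to the array median the signal was 6.85, 1.18 and 0.529 in positive replicates 1, 2 and 3, against 13.4, 19.5 and 15.7 in negative replicates 1, 2 and 3. Every positive array lay below every negative array. The normalized log2 signal was 4.77 ± 0.75 in positive arrays and 6.50 ± 0.26 in negative arrays (SD, n = 3 each). The difference of -1.73 (SE 0.44, adjusted p = 0.628, limma) was not past the threshold, with an adjusted p from 0.00272 to 0.964 over 19 alternatives.

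**Figure D1:**
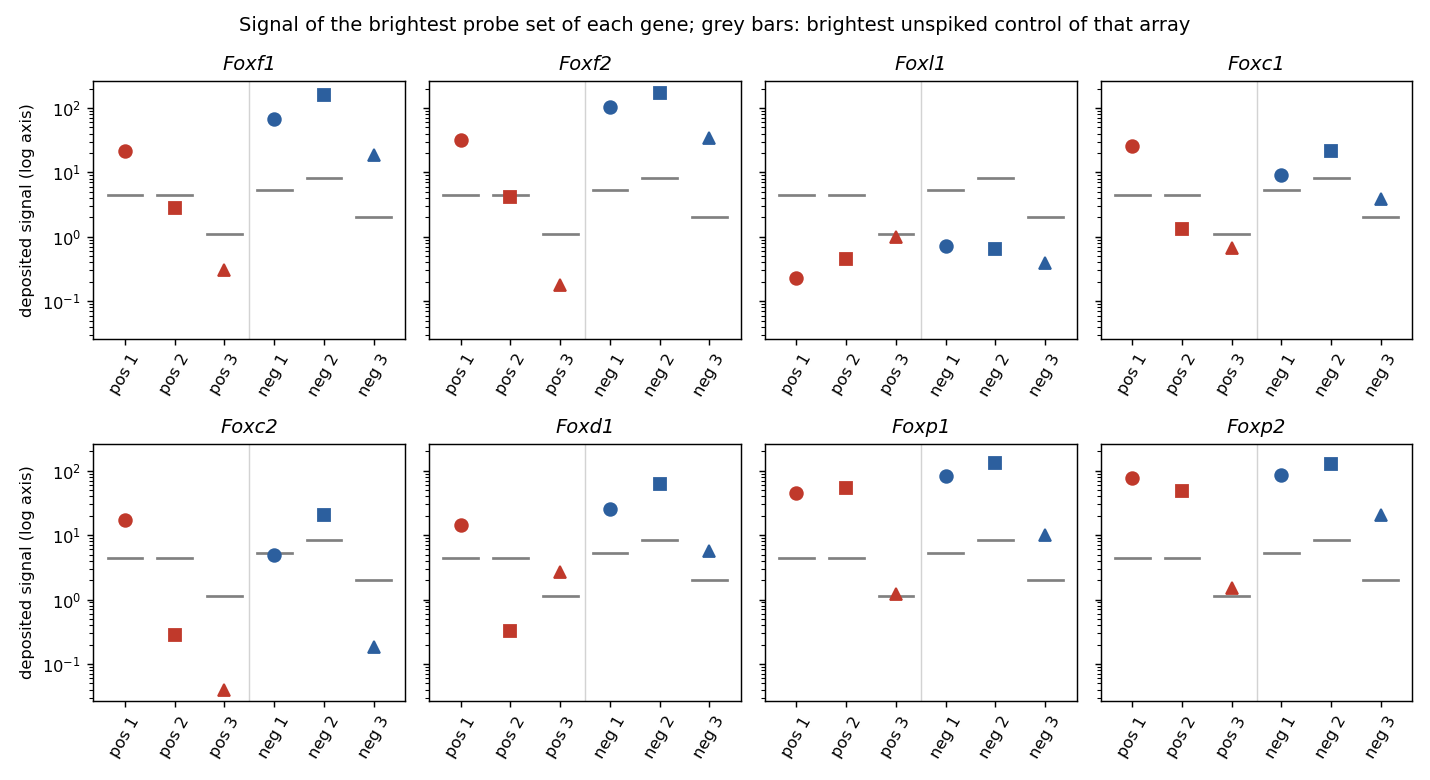
Deposited signal (log axis) of the brightest probe set of each of the 8 genes, with positive replicates 1 to 3 left (red) and negative replicates 1 to 3 right (blue), and grey bars at the brightest unspiked control of each array. For Foxf1 and Foxf2 only positive replicate 1 among the positive arrays lies above its grey bar, and Foxl1 lies below it on all 6 arrays.

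None of the 7 tested members passed an adjusted p of 0.05 in the 6 arrays (limma), where 0.0142% of 14071 genes did. Foxl1 was the member that failed the filter on dim genes. Before adjustment, limma placed 2 members under 0.05, Foxf1 and Foxf2, both lower in positive arrays, against 2.88% of genes in that direction. The groups did not overlap for the same 2 members, where 6.99% of all tested genes lay wholly lower in positive arrays. No member lay wholly higher, against 6.29% of genes. The same 2 members had a difference of -1 or below, as did 3.08% of genes. The median difference over the 7 tested members was 0.05, beside -0.03 over all genes tested, and 2 of the 7 were below 0, against 52.8% of genes. Tested one by one, none of the 20 member probe sets past the filter was called, against 0.0136% of 29373 probe sets. Of these 20, 2 lay wholly lower in positive arrays, the brighter ones of Foxf1 and Foxf2, against 6.67% of probe sets.

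The call on Foxf1 and Foxf2 depended on how the arrays were weighted. Without positive replicate 3 Foxf1 differed by -1.43 (SE 0.35, adjusted p = 0.0997, limma) and Foxf2 by -1.57 (SE 0.39, adjusted p = 0.0995, limma), still short of the threshold. In these 5 arrays 0.0501% of 13960 genes were called lower. Before adjustment 3 members, Foxf1, Foxf2 and Foxd1, were under 0.05 and lower there, against 3.75% of genes, and the groups did not overlap for these 3, against 11.4%. No member probe set was called lower when each was tested on its own in the 5 arrays, against 0.0646%. With array weights over all 6 arrays, which gave positive replicate 3 a weight of 0.0973 and negative replicate 2 a weight of 5.17, both were called lower. Foxf1 then differed by -1.41 (SE 0.29, adjusted p = 0.00142, limma) and Foxf2 by -1.38 (SE 0.30, adjusted p = 0.00272, limma), in a fit that called 1.60% of all genes lower. The difference of both genes was below 0 under all 19 alternatives, and the 2 calls were made by that one alone.

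The second probe sets of both genes were near background. Foxf1 probe set 1423013_at read 0.34, 0.32 and 1.43 in positive replicates 1, 2 and 3, against 1.37, 8.73 and 1.18 in negative replicates 1, 2 and 3. It was above background in 1 array of either group, positive replicate 3 and negative replicate 2, and its normalized difference was 0.28, opposite in sign to the brighter one. Foxf2 probe set 1447562_at was above background on no array and differed by -0.04. Averaging the probe sets of a gene moved the difference to -0.60 for Foxf1 and -0.88 for Foxf2.

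Positive replicate 1 held the largest mesenchymal signal among positive arrays, and Foxf1 and Foxf2 lay below their negative means in it. Both genes were singled out for lying lower in every positive array, so this is in part built in. Relative to the negative mean, Foxf1 lay at -0.86, -1.81 and -1.79 in positive replicates 1, 2 and 3, and Foxf2 at -0.87, -2.08 and -2.25. The median of the 26 mesenchyme markers lay at -0.03, -1.36 and -1.35 in the same arrays. None of the 26 markers was as low as Foxf1 or Foxf2 in positive replicate 1. Some markers, such as Thy1 with a negative mean of 4.34, were too dim to fall that far on this scale. In positive replicate 2 there were 7 markers at or below either gene, and in positive replicate 3 there were 11 at or below Foxf1 and 9 at or below Foxf2. Of all tested genes 0.611% lay at or below Foxf1 in positive replicate 1, 0.497% in positive replicate 2 and 5.51% in positive replicate 3. For Foxf2 these shares were 0.576%, 0.306% and 2.54%. The genes counted include ones too dim to fall that far, such as Foxc2 with a negative mean of 4.32.

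Mesenchyme markers moved with these genes in the other arrays. Their summed deposited signal was 31.1 to 3611 in positive arrays and 1381 to 8561 in negative arrays. Of the 26 tested markers 22 had a difference below 0 with a median of -0.85, and none passed over all genes (limma). An unadjusted p under 0.05 was found for 9 markers (limma), all lower, against 2.88% of genes in that direction. The largest differences were those of Col1a2, a fibrillar collagen, at -2.34 (SE 0.71), Cdh11, the mesenchymal cadherin, at -2.29 (SE 0.81) and Prrx1, a mesenchymal homeobox factor, at -2.05 (SE 0.66). With array weights, as for Foxf1 and Foxf2, these 3 were called lower, with adjusted p of 0.00544 for Col1a2, 0.0304 for Cdh11 and 0.0218 for Prrx1 (limma). Without positive replicate 1, Col1a2 at -3.37 (adjusted p = 0.0262, limma) and Cdh11 at -3.45 (adjusted p = 0.0423, limma) were called lower, and Foxf1 and Foxf2 were not (adjusted p = 0.194 and 0.125, limma). No marker was listed at 0 on any array. The part of these cells in the Foxf1 and Foxf2 differences was not tested.

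Erythroid markers were also low in positive arrays. Of 10 tested, 8 had a difference below 0, with a median of -1.06, and none passed in the 6 arrays (limma). Their summed deposited signal was 13.95 to 1436 in positive arrays and 3985 to 6154 in negative arrays, and no marker was listed at 0. The embryonic globin genes Hbb-bh1 and Hba-x differed by -4.07 and -3.65. Without positive replicate 3, 5 of 8 tested erythroid markers were called lower (limma), among 7 genes called lower in all. The part of erythroid cells in the Foxf1 and Foxf2 differences was not tested.

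**Figure D2:**
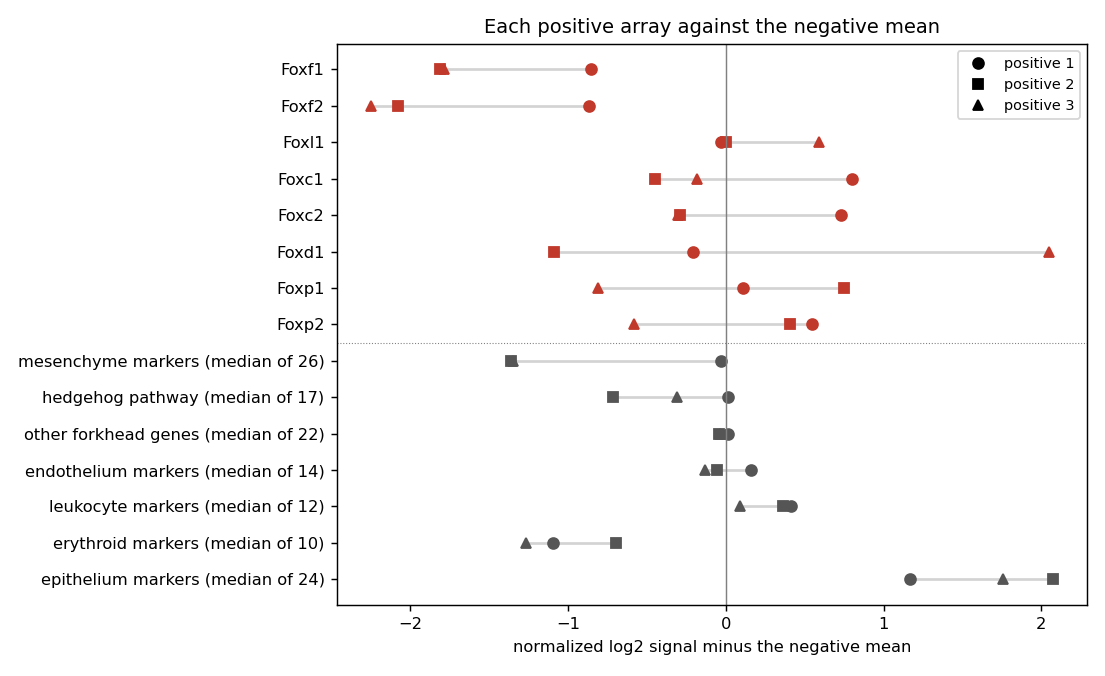
Normalized log2 signal of each positive array minus the mean of the 3 negative arrays, for the brightest probe set of the 8 genes (red) and for the median of each gene list (grey), with circles, squares and triangles for positive replicates 1, 2 and 3. Foxf1 and Foxf2 lie below 0 in all 3 positive arrays, whereas the mesenchyme median lies at -0.03 in positive replicate 1.

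Foxl1 could not be measured. Its 1 probe set, 1423027_at, read 0.23, 0.45 and 0.99 in positive replicates 1, 2 and 3, against 0.72, 0.64 and 0.39 in negative replicates 1, 2 and 3, and every value was below background. Its normalized signal was 4.24 ± 0.35 in positive arrays and 4.06 ± 0.04 in negative arrays (SD, n = 3 each), close to the value of 4 that a signal of 0 takes. With no filter on dim genes the difference of 0.18 did not pass (adjusted p = 0.756, limma).

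Foxc1 and Foxc2 had no common direction across the positive arrays. Foxc1 probe set 1419486_at read 26.1, 1.33 and 0.66 in positive replicates 1, 2 and 3, against 9.01, 21.5 and 3.92 in negative replicates 1, 2 and 3. Foxc2 probe set 1416693_at read 17.4, 0.28 and 0.04 in positive replicates 1, 2 and 3, against 4.99, 20.4 and 0.18 in negative replicates 1, 2 and 3. Both were above background in 1 positive array, replicate 1, and the groups overlapped.

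On the normalized scale the pair stood out in that one array. Against the negative mean Foxc1 lay at 0.80, -0.45 and -0.18 in positive replicates 1, 2 and 3 and Foxc2 at 0.73, -0.29 and -0.30. In positive replicate 1 this placed 98.2% of tested genes at or below Foxc1 and 97.7% at or below Foxc2, while Foxf1 and Foxf2 were among the lowest genes of the same array. The mean difference was 0.05 for Foxc1 (SE 0.34, adjusted p = 0.960, limma) and 0.05 for Foxc2 (SE 0.30, adjusted p = 0.962, limma). Without positive replicate 1 the difference of Foxc1 was -0.32, and Foxc2 failed the filter. The second Foxc1 probe set, 1419485_at, was like the first, at 0.81, -0.15 and 0.03 against its negative mean in positive replicates 1, 2 and 3.

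Endothelium markers were read beside this pair, since vessels express both genes. Of 14 tested markers 12, 3 and 2 were above background in positive replicates 1, 2 and 3, against 10, 7 and 7 in negative replicates 1, 2 and 3. Their summed deposited signal was 9.19 to 116 in positive arrays and 33.0 to 200 in negative arrays, and no marker was listed at 0. Their median lay at 0.16, -0.06 and -0.13 against the negative mean in positive replicates 1, 2 and 3. None passed over all genes (limma). An unadjusted p under 0.05 was found for 1, Fli1, at -0.77 (SE 0.31), against 5.17% of genes in either direction. Egfl7 and Cldn5, which endothelial cells secrete and use in their tight junctions, differed by 1.04 (SE 0.61) and 0.30 (SE 0.26). Without positive replicate 3 Egfl7 differed by 0.28. The part of endothelial cells in the values of Foxc1 and Foxc2 was not tested.

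Foxd1 was decided by 1 array. Probe set 1418876_at read 14.4, 0.32 and 2.67 in positive replicates 1, 2 and 3, against 25.5, 61.8 and 5.71 in negative replicates 1, 2 and 3. The value in positive replicate 3 was above the low background of that array, 1.12, and became 7.17 after normalization, the highest of the 6 arrays. The others were 4.91 and 4.04 in positive replicates 1 and 2, against 4.96, 5.43 and 4.98 in negative replicates 1, 2 and 3. Foxd1 differed by 0.25 (SE 0.68, adjusted p = 0.909, limma) with positive replicate 3 included and by -0.72 (SE 0.31, adjusted p = 0.495, limma) without it. As deposited, every positive array but replicate 1 lay below every negative array, without regard to how dim each array was. Relative to the array median the signal was 3.05, 0.0899 and 7.85 in positive replicates 1, 2 and 3. In negative replicates 1, 2 and 3 it was 3.34, 6.99 and 2.66.

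Foxp1 had 8 probe sets, more than any other member, and they did not move together. The brightest, 1435222_at, read 45.0, 53.7 and 1.21 in positive replicates 1, 2 and 3, against 82.1, 131 and 9.92 in negative replicates 1, 2 and 3. All 6 values were above background. The normalized signal was 5.90 ± 0.78 in positive arrays and 5.88 ± 0.37 in negative arrays (SD, n = 3 each), a difference of 0.01 (SE 0.47, adjusted p = 0.991, limma). Of the 8 probe sets 4 had a difference above 0 and 4 below, from -0.57 for 1435221_at to 0.75 for 1455242_at, and the groups overlapped for each of them. The largest value within this gene, 2.15 above the negative mean for 1443258_at in positive replicate 3, came from a deposited signal of 2.01 on that dim array. Probe sets with the suffixes _a_at and _s_at can match several transcripts, so the 8 need not report the same mixture of isoforms.

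Foxp2 was measured above background by 3 probe sets in every negative array and by 1 of these in every positive array. That probe set, 1438232_at, read 77.4, 49.3 and 1.53 in positive replicates 1, 2 and 3, against 84.6, 129 and 20.5 in negative replicates 1, 2 and 3. Its normalized signal was 6.26 ± 0.61 in positive arrays and 6.13 ± 0.10 in negative arrays (SD, n = 3 each), a difference of 0.12 (SE 0.42, adjusted p = 0.929, limma). Relative to the negative mean it lay at 0.55 and 0.41 in positive replicates 1 and 2 and at -0.58 in positive replicate 3. Without positive replicate 3 the difference was 0.49 (SE 0.31, adjusted p = 0.691, limma).

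The other Foxp2 probe sets did not settle a direction. The 6 differences ran from -0.59 for 1440108_at to 0.37 for 1458191_at, with 3 above 0 and 3 below. For 1458191_at the positive arrays lay wholly above the negative ones after normalization, which held for 5.63% of 29373 probe sets tested one by one. It read 6.34, 8.20 and 0.78 in positive replicates 1, 2 and 3, against 2.74, 5.88 and 1.51 in negative replicates 1, 2 and 3. Only positive replicates 1 and 2 were above background, and positive replicate 3 held the lowest deposited value. In the fit of probe sets one by one, the adjusted p of 1458191_at was 0.764 (limma). Several member probe sets shared this value and none went below it.

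**Figure D3:**
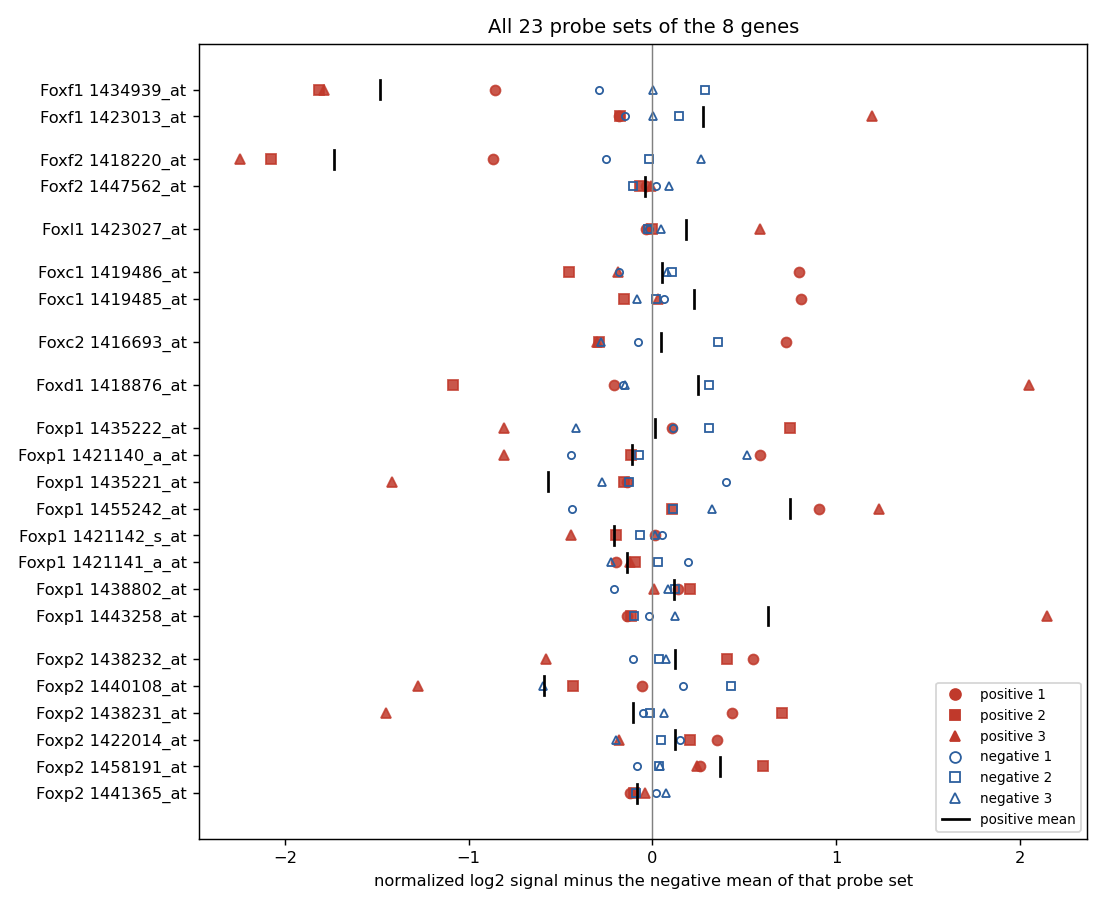
Normalized log2 signal minus the negative mean for all 23 probe sets, with filled red symbols for positive replicates 1 to 3, open blue symbols for negative replicates 1 to 3 and a black bar at the positive mean. Only the brighter probe sets of Foxf1 and Foxf2 have all positive arrays below all negative arrays, and single triangles to the right or left come from the dim positive replicate 3.

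The chromosomal neighbours of Foxf1 and Foxf2 had differences closer to 0 than theirs, but they were also dimmer. The neighbours named here had negative means of 4.32 to 5.45, on a scale where a signal of 0 takes the value of 4. None of them could fall as far as Foxf1 or Foxf2, so the contrast in size was fixed by their dim signal. These neighbours were picked after the values of the members were seen. In RefSeq GRCm38.p6, Foxf1, Mthfsd, Foxc2 and Foxl1 follow each other among coding genes of chromosome 8, and Foxq1, Foxf2, Foxc1 and Gmds among those of chromosome 13. Fendrr, a long noncoding RNA gene next to Foxf1, differed by -0.80 (SE 0.41), and its groups overlapped. Mthfsd differed by 0.01 (SE 0.26) and Foxc2 by 0.05, as above. On chromosome 13 Foxq1, a forkhead factor of epithelia, differed by -0.38 (SE 0.19), with all positive arrays below all negative ones, and by -0.057 without negative replicate 1. Gmds, an enzyme of fucose synthesis, differed by -0.05 (SE 0.36). None of these 4 neighbouring genes passed over all genes (limma, lowest adjusted p = 0.725). The difference between a member and its neighbour was not tested.

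**Figure D4:**
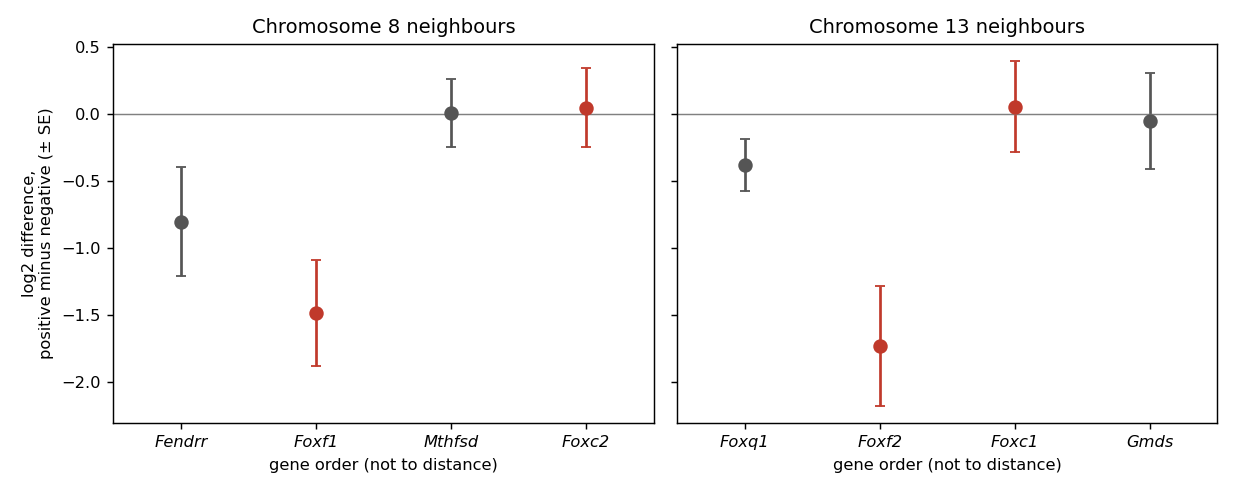
Difference in normalized log2 signal (positive minus negative, with its SE from limma over 6 arrays) for genes in chromosomal order, members in red and other genes in grey, spaced evenly and not by distance. Foxf1 at -1.49 and Foxf2 at -1.73 are followed by Mthfsd at 0.01 and Foxc1 at 0.05. The other genes shown were too dim in negative arrays to fall as far as Foxf1 or Foxf2.

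The genes most like Foxf1 and Foxf2 were sought by the root mean square difference of centred log2 values over the 6 arrays. Sall1, a zinc finger factor of limb, kidney and tubercle development, was the closest to Foxf1, at 0.12, followed by Tsnax at 0.15 and Sema4f at 0.18. Fndc3c1 was the closest to Foxf2, at 0.18, followed by the secreted Wnt antagonist Frzb at 0.18 and Sall1 at 0.20. Sall1 measured 5.77, 4.86 and 4.77 in positive replicates 1, 2 and 3, against 6.53, 6.72 and 6.68 in negative replicates 1, 2 and 3. It differed by -1.51 (SE 0.40, adjusted p = 0.702, limma). None of the 5 genes passed in the 6 arrays without weights, and with array weights all 5 were called lower, with adjusted p from 0.00443 to 0.0232 (limma). They were picked for values like those of Foxf1 or Foxf2 on these same arrays. Sharing the outcome of Foxf1 and Foxf2 was therefore built in and is no further result.

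Among the other forkhead genes the direction was split. Of 36 listed genes 29 were on the array with 1 gene to a probe set, and 22 passed the filter, with 11 differences above 0 and 11 below and a median of -0.07. None passed in the 6 arrays (limma), and 3 had an unadjusted p under 0.05, Foxa1 and Foxa2 higher and Foxb2 lower, at -0.36 (SE 0.15). Of all tested genes 5.17% had one under 0.05. Foxb2 was chosen after its value was seen. Foxa1 and Foxa2, pioneer factors of endodermal epithelium, differed by 3.81 (SE 0.48) and 2.53 (SE 0.49), and both rose in the 5 arrays without positive replicate 3 (adjusted p = 0.000499 and 0.00545, limma). In those 5 arrays they were the only 2 called of 21, where 0.602% of 13960 genes were called in either direction. Foxk1, a widely expressed repressor, differed by -0.93 (SE 0.45), Foxp4, a relative of Foxp1 and Foxp2, by 0.60 (SE 0.38) and Foxn1, a factor of thymus and skin epithelium, by 0.48 (SE 0.28). None of these 3 passed in the 6 arrays, Foxk1 and Foxp4 did not pass in the 5 arrays, and Foxn1 failed the filter there. Without positive replicate 3 Foxk1 differed by -0.55 and Foxp4 by 0.27.

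Hedgehog genes gave the context for Foxf1 and Foxf2. Of 21 listed genes 17 were tested, with 5 differences above 0, 12 below and a median of -0.29. Only Shh rose past the threshold, by 5.03 (SE 0.47, adjusted p = 0.0122, limma), and the sort selects for its locus. None was called lower, and 3 had an unadjusted p under 0.05 in that direction (limma), against 2.88% of all tested genes. These were Gas1, a hedgehog co-receptor, at -1.72 (SE 0.62), the transcriptional effector Gli2 at -1.30 (SE 0.50) and Gli1, a target and effector of the pathway, at -0.89 (SE 0.34). Ptch1, the receptor and a target of the pathway, differed by -1.94 (SE 0.88), and by -0.76 (SE 0.42) without positive replicate 3.

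The hedgehog genes differed among themselves in positive replicate 1. Ptch1 measured 8.65, 7.12 and 4.31 in positive replicates 1, 2 and 3, against 8.27, 9.06 and 8.57 in negative replicates 1, 2 and 3. Gli2 measured 6.09, 4.31 and 4.38 in positive replicates 1, 2 and 3, against 6.09, 6.32 and 6.28 in negative replicates 1, 2 and 3. In positive replicate 1 Ptch1 lay within the range of the negative arrays and Gli2 at its lower edge. Others were lower in that array, with Ccnd1, a cell cycle gene, at -0.84 against its negative mean, Gli1 at -0.55, Gas1 at -0.44 and the cilium kinesin Kif7 at -0.38, beside -0.86 for Foxf1 and -0.87 for Foxf2. The median of the 17 tested hedgehog genes was 0.015 in that array. Some lay above their negative means there, among them Osr1 at 0.82, Disp1 at 0.67 and Hhip at 0.43. Ccnd1, Kif7, Osr1, Disp1 and Hhip were chosen after their values were seen. The difference between members and hedgehog genes was not tested.

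**Figure D5:**
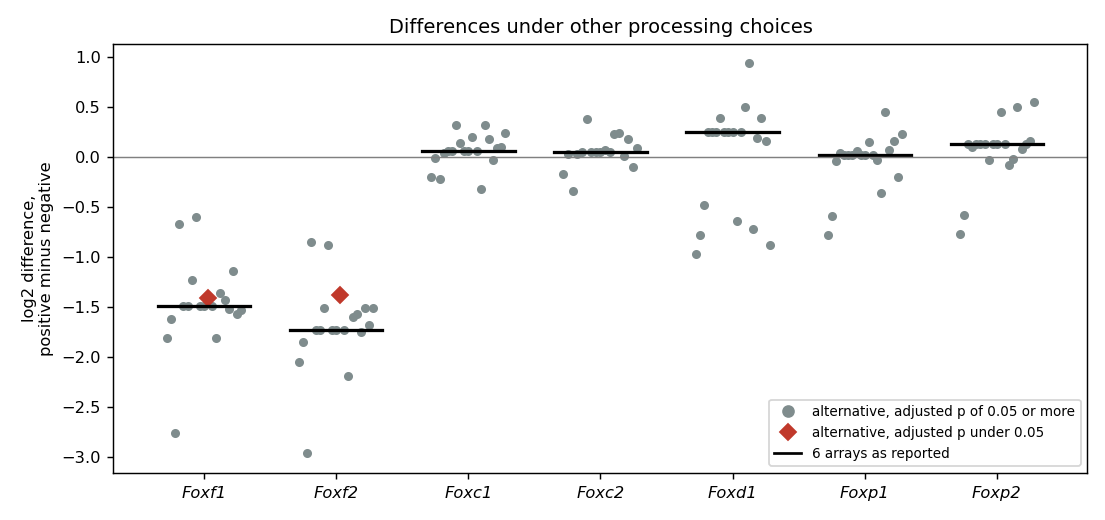
Log2 difference (positive minus negative) of the 7 tested members under 19 other processing choices, with grey circles for an adjusted p of 0.05 or more, red diamonds for one under 0.05, and a black bar at the 6-array value. Foxf1 and Foxf2 stay below 0 throughout and are called only with array weights, and the other 5 members cross 0.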

How the data were processed

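Groups were taken from the sample labels. The deposited files give each probe set 1 intensity on each array, taken as linear because they are never negative and span several orders of magnitude. Per the labels' protocols, total RNA was labelled with biotin. GCOS is named for 1 sample in the submitters' processing notes, and how probes were summarized and scaled was not given in the sources used here. After 64 control probe sets were set aside, 45037 were quantile normalized and transformed to log2(signal + 16), which understates changes of dim genes. Symbols of 34945 probe sets with 1 gene were updated through RefSeq (GRCm38.p6, 34741 matched). The other 932 had several genes and 9160 none. Each gene kept its probe set with the highest mean, and genes under the 30th percentile were dropped. The 14071 left were tested in limma 3.58.1 (R 4.3.3; lmFit, then eBayes with trend), Benjamini-Hochberg adjusted, at 0.05. Only the limma fit was tested on simulated data, and normalization, the filter and the choice of probe set were not.

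Named genes were all members, list genes that passed or had the largest differences, and the 3 genes most like each member with a difference of at least 1. Examples from these are given. Gli1 and the neighbours were picked after their values were seen. Members, lists and tests were chosen with earlier results of these data known. The lists of muscle and of neural crest, glia and neuron markers had medians of -0.05 over 6 and 0.03 over 4 tested genes. Leukocyte and erythroid markers had medians of 0.29 over 12 and -1.06 over 10, and no gene of these 4 lists passed in the 6 arrays. Without positive replicate 3, 5 of 8 erythroid markers were called lower and 3 of 13 leukocyte markers higher. In those 5 arrays 0.602% of all tested genes were called in either direction, and 0.0501% were called lower. Titles number the positive and negative arrays of equal pool size consecutively, but the labels do not say that they come from the same pool. Deviations of same-numbered arrays correlated at 0.127, 0.0331 and 0.109 across genes, and those of differently numbered arrays at -0.131 to 0.0628. Whether same-numbered arrays share a pool was not settled by this. The main fit did not take the numbers as pairs, and a block for pool size is given below. P-values measure the spread between arrays, which may share pools across groups, and 3 arrays a group limit the precision.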

Additional observations from a re-analysis of the deposited data

How the results depend on the processing

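The number of genes called over the whole table, 2 in the 6 arrays, was the least stable result. It was 0 with values as deposited, with the probe sets of a gene averaged or with a pseudocount of 64, 4 with every probe set tested on its own, 6 with the filter at the 50th percentile, 7 with a pseudocount of 1, 17 with signals floored at background, 33 with median centring, 27 without replicate 3 of both groups and 480 with array weights. Leaving out 1 array at a time gave 0 to 84. The number of members called was 2 with array weights and 0 under the other 18 alternatives. A block for pool size left it at 0, with Foxf1 and Foxf2 at an adjusted p of 0.681 (limma), and it changed no other call. Values as deposited and median centring move the median of all genes to -0.48 and -0.28. For the members that changed sign there, and for Foxp4, these values are also given relative to it.

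Foxf1 ran from -2.76 to -0.60 and Foxf2 from -2.96 to -0.85 over 19 alternatives, from -1.81 to -1.14 and from -2.19 to -1.51 when 1 array was left out. The other members changed sign. Foxc1 was -0.21 as deposited and -0.014 with median centring, but 0.27 relative to all genes in both. It was -0.22 with a pseudocount of 1, and -0.32 to 0.32 with 1 array left out. Foxc2 was -0.17 as deposited (0.31 relative to all genes) and -0.34 with a pseudocount of 1, and -0.10 to 0.24 with 1 array left out. Foxd1 was -0.97 as deposited and -0.78 with median centring (-0.50 relative to all genes in both). It was -0.48 with a pseudocount of 1, -0.64 with array weights and -0.88 without replicate 3 of both groups. With 1 array left out Foxd1 was -0.72 to 0.93. Foxp1 was -0.79 as deposited and -0.59 with median centring (-0.31 relative to all genes in both). It was -0.038 with a pseudocount of 1, and -0.36 to 0.45 with 1 array left out. Foxp2 was -0.77 as deposited and -0.58 with median centring (-0.29 relative to all genes in both). It was -0.027 with the mean of probe sets, and -0.086 to 0.49 with 1 array left out. The causes were not tested. As deposited, Foxp4 was -0.16 (0.32 relative to all genes) and Egfl7 -0.15. Mthfsd was -0.43 as deposited, -0.24 with median centring and -0.00107 with array weights, and -0.072 to 0.093 with 1 array left out, and Gmds was -0.27 to 0.21 with 1 array left out. Foxc2 failed the filter at the 50th percentile and without positive replicate 1, and Foxl1 passed to a test only with no filter. Signal over background limits Foxl1, Foxc2 and the second probe sets of Foxf1 and Foxf2. In positive replicate 3 it also limits the other members apart from Foxd1, Foxp1 and Foxp2. The tested probe sets of these were above background there, though on the dimmest array.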
